A study of Mus musculus with 32 samples.

Results

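Serotonin signals in the brain through a family of receptors that differ in what they couple to inside the cell. Most are G protein-coupled: receptors on Gi/o lower cyclic AMP and dampen excitability or transmitter release, receptors on Gq activate phospholipase C, and receptors on Gs raise cyclic AMP, whereas the type 3 receptor is a cation channel opened directly by serotonin. The striatum receives serotonin fibres from the raphe nuclei, and its projection neurons and interneurons carry several of these receptors, while receptor protein on incoming axon terminals is made from mRNA that lies in the cell bodies of other regions. The genes described here are 10 serotonin receptor genes, Htr1a, Htr1b, Htr1d, Htr1f, Htr2a, Htr2c, Htr3a, Htr4, Htr6 and Htr7, taken by name from the 23420 genes of the count tables. All 10 were among the 15589 genes with enough reads to be tested for a difference between genotypes.

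The 2 groups were 8 B6.D2 congenic mice, heterozygous for a DBA/2J segment of chromosome 11 on a C57BL/6J background, and 8 B6 littermates of the C57BL/6J genotype. All were naive and about 50 days old, and RNA came from striatal punches of both sides pooled within each mouse, so that each mouse gave 1 library and n counts mice. The comparison asks how striatal transcripts differ with the genotype of the segment in untreated animals. Mice 1 to 4 of each genotype were sequenced on lanes 5 and 6 and mice 5 to 8 on lanes 7 and 8, with the 31 available lane files summed per mouse. Reads on genes ranged from 19032826 to 33748353 per B6 mouse and from 24912413 to 32085311 per B6.D2 mouse. In the mouse reference annotation the 10 receptor genes lie on 8 chromosomes, and 0 of them lie on chromosome 11.

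A pair of libraries stood apart from the others in how their reads were assigned. In B6.D2 mouse 1, 27.3% of reads had more than 1 alignment, against 20.4% to 21.1% in the other B6.D2 mice, and 10.2% of reads lay outside annotated exons, against 14.5% to 15.6%. In B6 mouse 8, 11.3% of reads lay outside annotated exons, against 14.8% to 15.9% in the other B6 mice. The receptor genes show both libraries at the edges. B6.D2 mouse 1 had the lowest level of all 16 mice for 5 of the 10 genes and the highest for 1, and B6 mouse 8 had the highest for 4 and the lowest for 1. Values with the 14 other mice alone, a comparison chosen after the read shares were seen, are given beside the results for each receptor gene and for the gene lists.

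The punches carried the markers of striatum. All 8 genes of a list for striatal projection neurons were tested, and their summed level ran from 4912 to 7207 CPM over the 16 mice, where CPM is the count of a gene relative to the library's reads on genes, scaled by the TMM method. The most abundant gene of that list was Pde10a, at 1512 CPM. Of 7 genes of serotonin neurons, 3 were close to 0 and below the level needed for testing: the serotonin transporter gene Slc6a4 averaged 0.0376 CPM, and the transcription factor genes Fev and Gata3 averaged 0.0100 and 0.0190 CPM. The other 4 were read in every mouse. Tph2, which encodes the serotonin-synthesizing enzyme of neurons, averaged 1.68 CPM (36 to 86 reads per mouse), and Gch1, Slc18a2 and Ddc, which other monoamine neurons also use, averaged 1.49, 7.99 and 10.4 CPM.

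Between genotypes, 7 of the 10 receptor genes had a log2 fold change (B6.D2 over B6) below 0, against 45.1% of all genes tested, and 3 of the 10 had an unadjusted p under 0.05 in edgeR's quasi-likelihood test, against 10% of all genes tested. All 3 of those genes, Htr1a, Htr1f and Htr2c, were lower in B6.D2, a direction and threshold met by 5.14% of all genes tested. None of the 10 genes (0) passed a false discovery rate of 5% in edgeR with p-values adjusted over all 15589 genes, a threshold passed by 1 gene or 0.00641% of those tested, and their adjusted p ran from 0.406 to 0.923. That gene was Tnip1, named here after its value was seen, at a log2 fold change of 0.39 (SE 0.05, adjusted p 0.00637), with 8 of 8 B6.D2 mice above the B6 median. DESeq2 and edgeR's likelihood ratio test called 28 and 20 genes and likewise 0 receptor genes, with 3 of the 10 at an unadjusted p under 0.05 in each, against 8.44% and 9.60% of all genes they tested. The median log2 fold change was −0.16 over the 10 receptor genes and 0.01 over all genes tested. The count of lower genes depends on the libraries that stood apart: in the 14 mice, 5 of the 10 genes were lower, against 50.9% of all genes tested, with a median of −0.042. There 3 of the 10 had an unadjusted p under 0.05 (Htr1a, Htr1f and Htr2a, all lower), against 12.8% of all genes tested, and 0 of the 10 passed the false discovery rate in edgeR. By coupling, 3 of 4 Gi/o genes, 2 of 2 Gq genes, the channel gene and 1 of 3 Gs genes were lower, with median log2 fold changes of −0.21, −0.29, −0.21 and 0.03. These became, in the 14 mice, 2 of 4, 2 of 2, 1 of 1 and 0 of 3, with medians of −0.11, −0.17, −0.20 and 0.12.

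**Figure D1:**
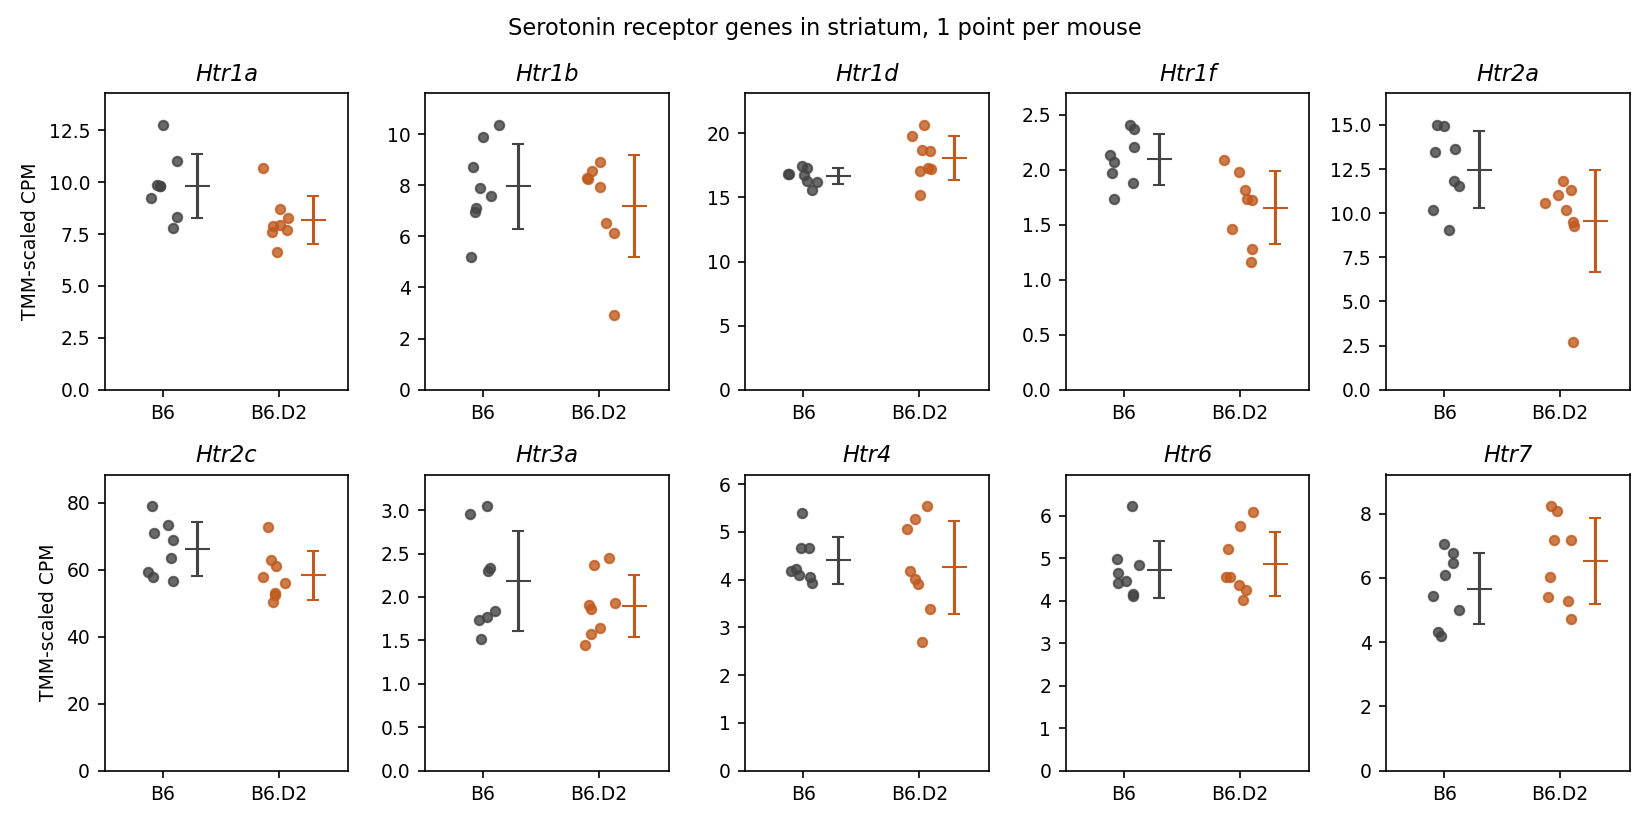
Level of each of the 10 receptor genes in TMM-scaled CPM (y axis, from 0), with 1 point for each of 8 B6 and 8 B6.D2 mice; the bars give the mean and SD of each group. For Htr1f and Htr2a all 8 B6.D2 mice lie below the B6 median, yet the 2 groups overlap for every gene.

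**Figure D2:**
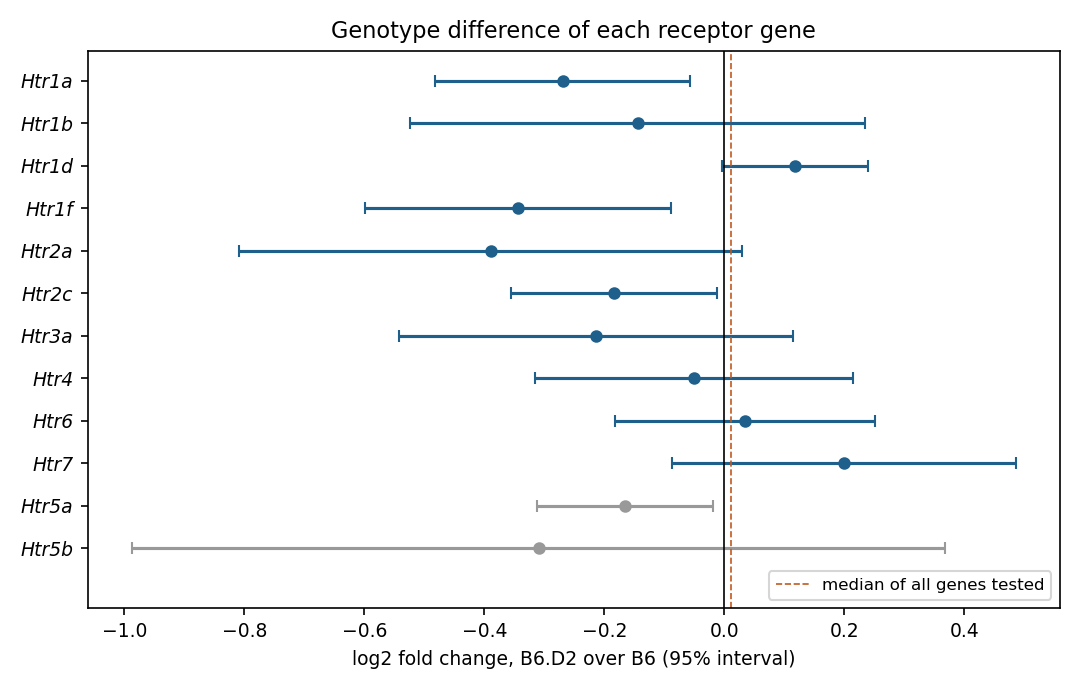
Log2 fold change of each receptor gene, B6.D2 over B6, with its 95% interval from edgeR (x axis); grey marks Htr5a and Htr5b, outside the 10. The intervals of Htr1a, Htr1f and Htr2c lie below 0, and so does that of Htr5a.

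Promoter windows of the 3 genes with an unadjusted p under 0.05 are printed to show what stands at the starts of the genes with the smallest p. The sequences are those of RefSeq for GRCm38.p6, 300 bases around each annotated start, written 5′ to 3′ on the strand of the gene. Capitals mark the GC box, searched as GGGCGG and as CCGCCC for the other strand; TATAAA, searched with TTTATA for the other strand, was found in none of them. The motifs were chosen after the expression values were seen. Htr1a lies on the plus strand (chr13:105443443-105443742), Htr1f on the minus strand (chr16:65105735-65106034) and Htr2c on the plus strand (chrX:146962263-146962562).
Htr1a: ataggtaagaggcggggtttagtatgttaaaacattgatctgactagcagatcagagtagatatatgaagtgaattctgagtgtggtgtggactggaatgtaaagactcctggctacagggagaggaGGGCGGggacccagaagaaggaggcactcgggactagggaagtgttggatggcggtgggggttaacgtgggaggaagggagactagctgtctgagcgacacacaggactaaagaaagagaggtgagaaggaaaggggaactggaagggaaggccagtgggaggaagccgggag
Htr1f: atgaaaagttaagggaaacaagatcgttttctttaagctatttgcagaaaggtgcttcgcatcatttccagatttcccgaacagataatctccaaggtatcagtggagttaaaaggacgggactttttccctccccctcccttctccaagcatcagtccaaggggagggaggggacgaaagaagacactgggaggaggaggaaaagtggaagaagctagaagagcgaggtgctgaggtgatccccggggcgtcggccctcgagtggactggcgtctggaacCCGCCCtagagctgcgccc
Htr2c: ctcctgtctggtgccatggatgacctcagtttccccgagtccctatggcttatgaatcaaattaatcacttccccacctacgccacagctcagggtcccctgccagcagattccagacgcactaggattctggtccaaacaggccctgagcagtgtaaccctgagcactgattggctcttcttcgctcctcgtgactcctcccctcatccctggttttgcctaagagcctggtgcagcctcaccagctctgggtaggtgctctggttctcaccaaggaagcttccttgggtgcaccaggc
The Htr1a and Htr1f windows each hold 1 GC box and the Htr2c window holds 0, with 52.3%, 53.0% and 56.3% G and C. Entries were found for 8 of the 10 genes, 10 windows in all, and there was none for Htr3a and Htr4. A GC box was present in 6 of the 10 windows, belonging to 5 genes, and TATAAA in 0, whereas of all 32851 promoter windows of that length 35.7% held a GC box and 13.6% held TATAAA. These matches describe letters in a window and nothing of what binds there.

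Among the Gi/o receptors, Htr1a encodes the receptor that serves as autoreceptor on raphe neurons and as an inhibitory receptor on cortical and hippocampal neurons. Its level ran from 7.82 over a median of 9.81 to 12.8 CPM in B6 and from 6.64 over 7.92 to 10.7 CPM in B6.D2. Only B6.D2 mouse 2 lay above the B6 median, and 5 of the 8 B6.D2 mice fell inside the B6 range, so the groups overlapped. The log2 fold change was −0.27 (SE 0.10, 95% interval −0.48 to −0.06, unadjusted p 0.0159, adjusted p 0.421), and the exact permutation test of log2 CPM over all 12870 regroupings gave an unadjusted p of 0.0252, where the smallest it can give is 1.55e-04. With B6 mouse 8 and B6.D2 mouse 1 left out the log2 fold change was −0.27 again (SE 0.11, unadjusted p 0.0213). With a score of cortical neuron markers as a covariate, described below, it was −0.04 (SE 0.10, unadjusted p 0.690 in edgeR).

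Htr1f encodes another Gi/o receptor, with high affinity for several drugs used against migraine. It was the receptor gene with the smallest p, and the fewest reads of the 10 stood behind it, 33 to 79 per mouse. B6 mice ran from 1.73 over a median of 2.10 to 2.40 CPM, and B6.D2 mice from 1.16 over 1.73 to 2.09 CPM. All 8 B6.D2 mice lay below the B6 median, with 3 of them inside the B6 range. The log2 fold change was −0.34 (SE 0.12, 95% interval −0.60 to −0.09, unadjusted p 0.0110, adjusted p 0.406; exact permutation p 0.00824), and −0.28 (unadjusted p 0.0241) in the 14 mice. Counting alone gives a coefficient of variation of 13.6% at its mean of 54.4 reads, close to the 15.2% measured within groups. The same figures for Htr2a were 5.60% and 23.3%, and 5.47% and 14.5% without B6.D2 mouse 1.

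Htr1d and Htr1b encode the closely related receptors that inhibit release from axon terminals. Htr1d ran from 15.6 over a median of 16.8 to 17.4 CPM in B6 and from 15.2 over 17.97 to 20.6 CPM in B6.D2. Of the B6.D2 mice, 7 lay above the B6 median, and their spread was wider, with an SD of 1.74 CPM against 0.601 CPM in B6. The log2 fold change was 0.12 (SE 0.06, 95% interval −0.00 to 0.24, unadjusted p 0.0583, adjusted p 0.513; exact permutation p 0.0549), and 0.09 (unadjusted p 0.115) in the 14 mice. Within lane pairs the log2 fold change was 0.22 (SE 0.09, unadjusted p 0.0289 in edgeR) on lanes 5 and 6 and 0.0025 (SE 0.07, unadjusted p 0.972 in edgeR) on lanes 7 and 8. The interaction did not pass in edgeR (unadjusted p 0.0617, adjusted p 0.950), so a difference between the lane pairs was not shown.

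Htr1b ran from 5.19 over a median of 7.74 to 10.3 CPM in B6 and from 2.92 over 8.09 to 8.91 CPM in B6.D2. The lowest value belonged to B6.D2 mouse 1, and the next B6.D2 mouse stood at 6.14 CPM, so the B6.D2 median lay above the B6 median although the mean lay below. The log2 fold change was −0.14 (SE 0.18, unadjusted p 0.435, adjusted p 0.804; exact permutation p 0.467), −0.02 without B6.D2 mouse 1 and 0.04 in the 14 mice. Reads of this gene are less certain than those of the others. Its annotated exons overlap those of D430036J16Rik on the opposite strand, in GENCODE's annotation of NCBIM37 over 852 of 1273 bases, and the authors counted without strand, which leaves reads in the shared stretch unassigned or, where annotations differ, assigned to either gene. D430036J16Rik itself stood at 8.28 ± 0.857 CPM (SD, n = 16). None of the 9 other receptor genes had an exon overlap with another gene in that annotation.

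The Gq receptors are Htr2a, the cortical receptor through which classic hallucinogens act, and Htr2c, a receptor whose mRNA is edited and which is found on striatal projection neurons. Htr2a ran from 9.04 over a median of 12.6 to 14.98 CPM in B6 and from 2.70 over 10.4 to 11.8 CPM in B6.D2. All 8 B6.D2 mice lay below the B6 median but 7 of them lay inside the B6 range, and the lowest, B6.D2 mouse 1, stood far from the next at 9.25 CPM. The log2 fold change was −0.39 (SE 0.20, 95% interval −0.81 to 0.03, unadjusted p 0.0670, adjusted p 0.528), while the exact permutation test gave an unadjusted p of 0.0305. Without B6.D2 mouse 1 the difference was smaller and the spread too, at −0.25 (SE 0.10, unadjusted p 0.0203, adjusted p 0.307), and in the 14 mice it was −0.21 (SE 0.10, unadjusted p 0.0417, adjusted p 0.375).

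Htr2c ran from 56.6 over a median of 66.2 to 78.9 CPM in B6 and from 50.4 over 56.9 to 72.7 CPM in B6.D2. Of the B6.D2 mice, 7 lay below the B6 median and 4 lay inside the B6 range. The log2 fold change was −0.18 (SE 0.08, 95% interval −0.35 to −0.01, unadjusted p 0.0366, adjusted p 0.474; exact permutation p 0.0555). The highest Htr2c level of all belonged to B6 mouse 8 and the lowest to B6.D2 mouse 2. In the 14 mice the log2 fold change was −0.13 (SE 0.08, unadjusted p 0.114). Htr2a and Htr2c thus traded places across the 0.05 line between edgeR and the exact test, and again between 16 and 14 mice.

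Htr3a encodes a subunit of the serotonin-gated cation channel and marks a class of interneurons. It ran from 1.52 over a median of 2.07 to 3.04 CPM in B6 and from 1.45 over 1.88 to 2.45 CPM in B6.D2, with 6 of 8 B6.D2 mice below the B6 median and 7 inside the B6 range. Its log2 fold change of −0.21 (SE 0.16, unadjusted p 0.188; exact permutation p 0.267) was within the spread between mice. It was −0.20 (SE 0.15) in the 14 mice, and leaving out 1 mouse at a time it ran from −0.28 without B6.D2 mouse 1 to −0.13 without B6 mouse 1 or B6 mouse 8.

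The Gs receptors Htr4, Htr6 and Htr7 all raise cyclic AMP, and Htr4 and Htr6 are known for expression in striatal projection neurons. Htr4 ran from 3.93 over 4.20 to 5.40 CPM in B6 and from 2.70 over 4.09 to 5.54 CPM in B6.D2, with a log2 fold change of −0.05 (SE 0.13), and of 0.07 in the 14 mice. Htr6 had medians of 4.56 CPM in both groups and a log2 fold change of 0.03 (SE 0.10), and of 0.13 (SE 0.09, unadjusted p 0.143) in the 14 mice, its highest B6 value belonging to B6 mouse 8. Over the 16 mice neither differed beyond the spread between mice, with unadjusted p of 0.692 and 0.744. The intervals still allow log2 differences of −0.32 to 0.21 for Htr4 and −0.18 to 0.25 for Htr6.

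Htr7 ran from 4.19 over a median of 5.75 to 7.04 CPM in B6 and from 4.71 over 6.59 to 8.23 CPM in B6.D2. The groups overlapped widely, with 5 of 8 B6.D2 mice above the B6 median, and the log2 fold change was 0.20 (SE 0.14, unadjusted p 0.160, adjusted p 0.622; exact permutation p 0.198), and 0.12 (unadjusted p 0.389) in the 14 mice. The lane pairs, which share no mouse, went opposite ways for this gene. On lanes 5 and 6 the log2 fold change was −0.12 (SE 0.19), and on lanes 7 and 8 it was 0.51 (SE 0.14). The interaction of genotype and lane pair was 0.64 (SE 0.24, unadjusted p 0.0175), and with an adjusted p of 0.950 over all genes tested in edgeR it did not pass. Within lanes 7 and 8 the B6 mice averaged 5.17 ± 0.792 CPM and the B6.D2 mice 7.38 ± 1.02 CPM (SD, n = 4), and the highest B6 mouse there, at 6.08 CPM, stood just above the lowest B6.D2 mouse, at 6.01 CPM.

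Over all 10 genes, 7 had the same sign in both lane pairs, against 55.9% of all genes tested in both. At an unadjusted p under 0.05 in edgeR, 2 of the 10 genes passed on lanes 5 and 6 (Htr1d and Htr1f), against 3.20% of all genes tested there, and 3 of 10 on lanes 7 and 8 (Htr1a, Htr2a and Htr7), against 9.01%. Each lane pair had 4 mice per genotype, and 0 of the 10 passed on both. The interaction had an unadjusted p under 0.05 for 1 of the 10 genes, Htr7, against 1.88% of all genes tested, and an adjusted p under 0.05 for 0 genes, so a difference between lane pairs was not shown for any of them.

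**Figure D3:**
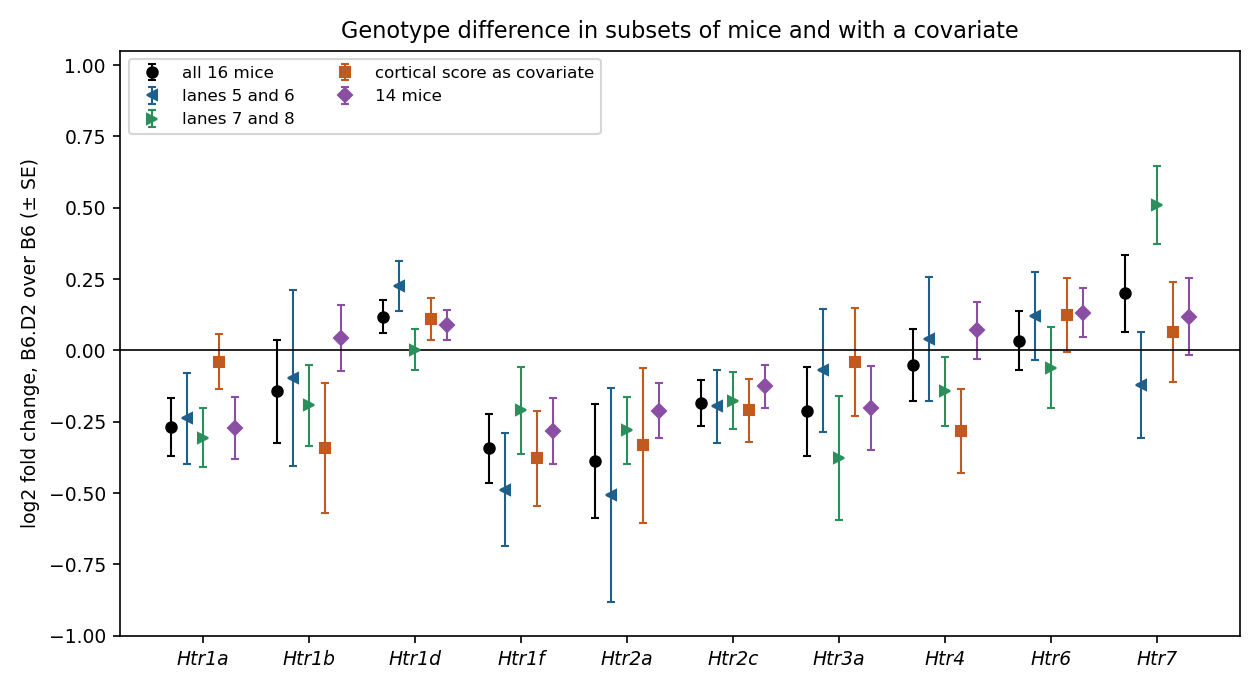
Log2 fold change of each receptor gene, B6.D2 over B6, with its SE (y axis), over all 16 mice, within each lane pair, with a score of cortical neuron markers as a covariate, and over the 14 mice without B6 mouse 8 and B6.D2 mouse 1. Htr1a moves from −0.27 to −0.04 with the covariate, and Htr7 lies on opposite sides of 0 in the 2 lane pairs.

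The 4 other serotonin receptor genes of the tables were Htr2b, Htr3b, Htr5a and Htr5b. Htr5a, a Gi/o receptor, averaged 12.5 ± 0.954 CPM in B6 and 11.1 ± 1.16 CPM in B6.D2 (SD, 8 mice each). Its log2 fold change was −0.17 (SE 0.07, unadjusted p 0.0285, adjusted p 0.461 in edgeR; exact permutation p 0.0270), with 7 of 8 B6.D2 mice below the B6 median. B6 mouse 8 was its highest B6 mouse and B6.D2 mouse 1 its lowest B6.D2 mouse, and in the 14 mice the value was −0.12 (SE 0.06, unadjusted p 0.0772). Htr5b averaged 0.440 and 0.347 CPM and did not differ beyond its spread (log2 fold change −0.31, SE 0.32). Htr2b and Htr3b had 54 and 46 reads over all 16 mice and were not tested. In the 1 mouse where Htr3b had 0 reads, that count allows up to 0.157 CPM, counting error alone considered.

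Levels of different receptors were compared per length of exon, as CPM per kb, with lengths from GENCODE's annotation of NCBIM37. In falling order of mean level per kb over the 16 mice these were Htr2c (6.67 ± 0.908 CPM per kb, SD), Htr1b (5.95 ± 1.43), Htr1d (5.42 ± 0.453), Htr2a (3.70 ± 0.975), Htr6 (2.05 ± 0.297), Htr1a (2.03 ± 0.355), Htr7 (1.79 ± 0.371), Htr3a (0.981 ± 0.234), Htr4 (0.930 ± 0.161) and Htr1f (0.747 ± 0.142). The order falls into steps. Neighbours were compared by exact sign-flip tests of the ratio of their levels within each mouse, with p-values adjusted over the 9 neighbour pairs. Htr2c was above Htr1b in 12 of 16 mice by a ratio of 1.15 (adjusted p 0.0953), and Htr1b above Htr1d in 13 of 16 by a ratio of 1.06 (adjusted p 0.671), so over the 16 mice Htr1b was not separated from either neighbour. B6.D2 mouse 1, a library that stood apart, had the lowest Htr1b (2.29 CPM per kb) and the highest Htr1d (6.45 CPM per kb). The 13 mice with Htr1b above Htr1d do not include that library. Htr1b was also below Htr1d in B6 mouse 1 (4.08 against 5.08 CPM per kb) and B6.D2 mouse 2 (5.13 against 5.37). The order was not tested without B6.D2 mouse 1, so no p stands behind the place of Htr1b against Htr1d in the other mice. Htr2c and Htr1d, compared as well after the levels were seen, differed: Htr2c was above in 14 of 16 mice by a ratio of 1.22 (exact sign-flip test, adjusted p 0.00121 over 11 pairs). Htr1d exceeded Htr2a in 15 of 16 mice by a ratio of 1.54 (adjusted p 2.75e-04), and Htr2a exceeded Htr6 in 15 of 16 by a ratio of 1.73 (adjusted p 7.32e-04). Htr6, Htr1a and Htr7 did not differ beyond their spread, with adjusted p of 0.772 for Htr6 against Htr1a (ratio 1.01, higher in 10 of 16) and 0.146 for Htr1a against Htr7 (ratio 1.14, higher in 11 of 16). For Htr6 against Htr7, likewise added later, the ratio was 1.16 (higher in 12 of 16, adjusted p 0.0994 over 11 pairs). These 3 also stood in different orders in the 2 genotypes: Htr1a (2.22 CPM per kb), Htr6 (2.02) and Htr7 (1.67) in B6, but Htr6 (2.07), Htr7 (1.92) and Htr1a (1.84) in B6.D2. Htr7 exceeded Htr3a in 15 of 16 mice (ratio 1.83, adjusted p 2.75e-04), Htr3a and Htr4 were level with each other (ratio 1.04, higher in 9 of 16, adjusted p 0.671), and Htr4 exceeded Htr1f in 14 of 16 (ratio 1.25, adjusted p 0.00124).

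The place of Htr2c and Htr1b depends on the length used. Divided by the longest annotated transcript, 4883 bases in place of 9328 bases of joined exons, Htr2c stood at 12.7 ± 1.73 CPM per kb and above the next gene, Htr1d, in 16 of 16 mice (ratio 2.12, exact sign-flip test, adjusted p 1.83e-04). Htr1b has 1273 bases of exon in NCBIM37 but spans 5542 bases in RefSeq's annotation of GRCm38.p6, and with that span as its length, chosen after the levels were seen, it stood at 1.37 ± 0.327 CPM per kb, in the 7th place. The other genes kept their joined exons there, so that place sets a span against exon lengths. As shares of the summed level per kb of the 10 genes, Gi/o receptors made up 46.8% ± 2.71, Gq receptors 34.1% ± 2.86, Gs receptors 15.9% ± 1.75 and the channel subunit 3.27% ± 0.827 (SD, n = 16). Htr2c alone made up 22.0% ± 1.74. Among the 10 genes the order of the classes turned with the length. Htr5a, a Gi/o receptor outside the 10 (11.8 CPM, 5576 bases of joined exons), is not in these shares. The order of the classes with Htr5a counted was not computed. By longest transcripts Gq receptors made up 44.2% ± 2.82 and Gi/o receptors 39.8% ± 2.67, with Htr2c alone at 34.3% ± 2.27, and with the longer Htr1b the values were 40.1% ± 3.50 for Gq, 37.4% ± 2.52 for Gi/o and 25.9% ± 1.66 for Htr2c. Gq stood above Gi/o in 12 of 16 mice under each of these lengths and in 0 of 16 by joined exons.

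**Figure D4:**
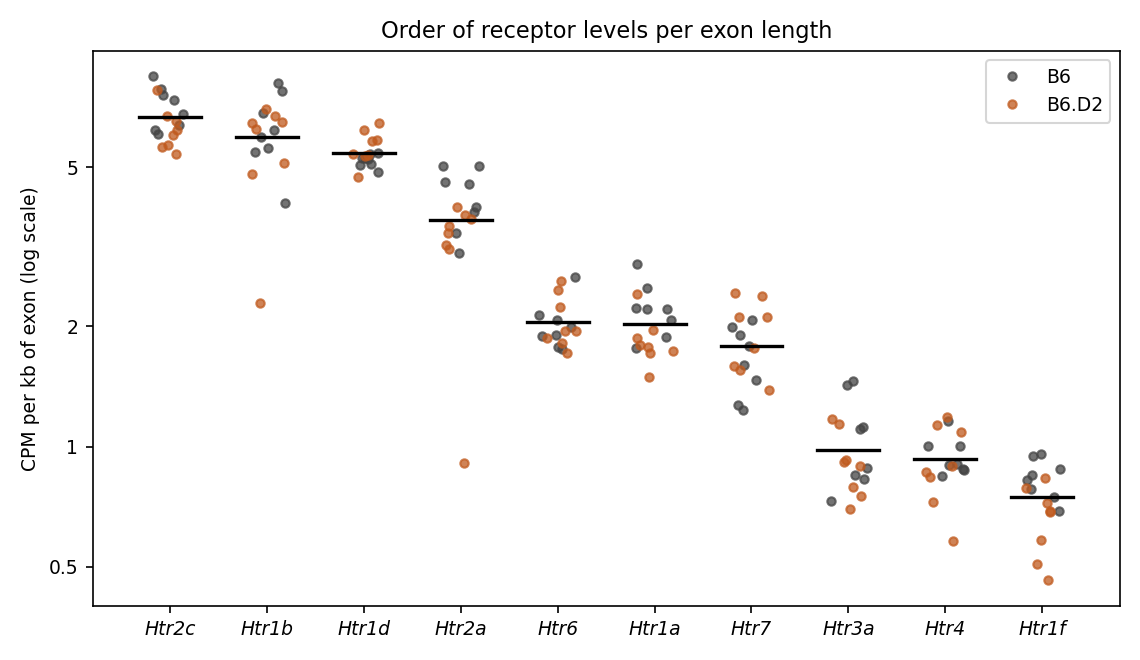
Level of the 10 receptor genes in CPM per kb of joined exons (y axis, log scale), with 1 point per mouse coloured by genotype and a bar at the mean of all 16 mice, in falling order of the mean. The low points of Htr1b and Htr2a are B6.D2 mouse 1.

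The receptor genes were set beside marker genes of the cell types that a striatal punch can hold. In bulk tissue, fewer cells of a type and less RNA per cell cannot be told apart. The counts of these lists stand against 45.1% of all genes tested lower and 10% at an unadjusted p under 0.05 in edgeR. In the 14 mice those shares were 50.9% and 12.8%. Of a list of 13 genes for cortical glutamatergic neurons, 13 of 13 were lower in B6.D2 and 11 had an unadjusted p under 0.05 in edgeR, with 0 past the false discovery rate of 5% in edgeR, 1 in DESeq2 and 1 in the likelihood ratio test, and a median log2 fold change of −0.56. Its summed level ran from 573 over a median of 827 to 946 CPM in B6 and from 367 over 542 to 831 CPM in B6.D2, and 7 of 8 B6.D2 mice lay below the B6 median, all but mouse 2. Its most abundant gene was Slc17a7 at 342 CPM, none of its 13 genes was at 0, and its smallest p belonged to Neurod6 (log2 fold change −0.56, SE 0.13, unadjusted p 5.30e-04, adjusted p 0.331). The choroid plexus list went the other way in 10 of 12 genes with 0 at an unadjusted p under 0.05 in edgeR, its sum running from 25.4 to 185 CPM, most of it Ttr at 53.7 CPM. The striatal projection neuron list was higher in 6 of 8 genes, again with 0 at an unadjusted p under 0.05, and with a median log2 fold change of 0.04. In the 14 mice the cortical list was lower in 13 of 13 genes with 11 at an unadjusted p under 0.05, the choroid plexus list higher in 10 of 12 with 0, and the projection neuron list higher in 8 of 8 with 1.

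Each of the 10 receptor genes was related to the scores of 5 marker lists (the mean of standardized log2 CPM over the list's genes) across the 16 mice after subtracting genotype means, 50 relations in all with p-values adjusted over them. By Pearson's r, 2 relations had an adjusted p under 0.05. Htr1a followed the cortical neuron score with r = 0.76 (permutation p 7.40e-04, adjusted p 0.0185) and Spearman's rho = 0.69 (permutation p 0.00400, adjusted p 0.05). Without the 2 mice farthest from the median of the score r was 0.56, and it was 0.63 on lanes 5 and 6 and 0.86 on lanes 7 and 8. In the 14 mice without the libraries that stood apart it was 0.77 (adjusted p 0.0305). B6.D2 mouse 2, the B6.D2 mouse with the highest cortical sum, was also the B6.D2 mouse with the highest Htr1a level. With the cortical score as a covariate the log2 fold change of Htr1a was −0.04 (SE 0.10, unadjusted p 0.690) in place of −0.27, while that of Htr1f was −0.38 (SE 0.17, unadjusted p 0.0349) and that of Htr2c −0.21 (SE 0.11, unadjusted p 0.0752). Other genes moved with the covariate too: Htr3a to −0.04 from −0.21, Htr1b to −0.34 from −0.14, Htr4 to −0.28 (SE 0.15, unadjusted p 0.0704) from −0.05, and Htr7 to 0.06 from 0.20. Htr6 moved to 0.12 from 0.03. The part of cortical tissue in the genotype differences was not tested beyond these values, and the score was itself lower in B6.D2.

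Htr7 ran against the striatal projection neuron score, with r = −0.81 (permutation p 6.00e-05, adjusted p 0.00300) and rho = −0.78 (permutation p 4.90e-04, adjusted p 0.0245). Without the 2 mice farthest from the median r was −0.83, and it was −0.94 on lanes 5 and 6 and −0.78 on lanes 7 and 8. In the 14 mice it was −0.77 (adjusted p 0.0305). Mice with more of the projection neuron markers thus had less Htr7 in both lane pairs, and the part of tissue composition in the Htr7 values was not tested. By rank, a pair of further relations had the same adjusted p as that of Htr1a over the 16 mice, but not over the 14, where it was 0.211 for both and 0.0478 for Htr1a. Their r in the 14 mice was larger in size than over the 16, −0.68 for Htr4 (adjusted p 0.129) and 0.62 for Htr1b (adjusted p 0.222). Htr4 ran against the cortical neuron score with rho = −0.72 (permutation p 0.00250, adjusted p 0.05) and r = −0.55 (permutation p 0.0270, adjusted p 0.335), r being −0.51 without the 2 farthest mice and −0.55 and −0.43 within the lane pairs. Htr1b followed the projection neuron score with rho = 0.69 (permutation p 0.00393, adjusted p 0.05) and r = 0.53 (permutation p 0.0394, adjusted p 0.335), r being 0.53 without the 2 farthest mice and 0.49 and 0.80 within the lane pairs. The choroid plexus, GABAergic interneuron and oligodendrocyte scores gave 0 relations with an adjusted p under 0.05 among 30 by the permutation test, and 2 with an unadjusted p under 0.05.

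**Figure D5:**
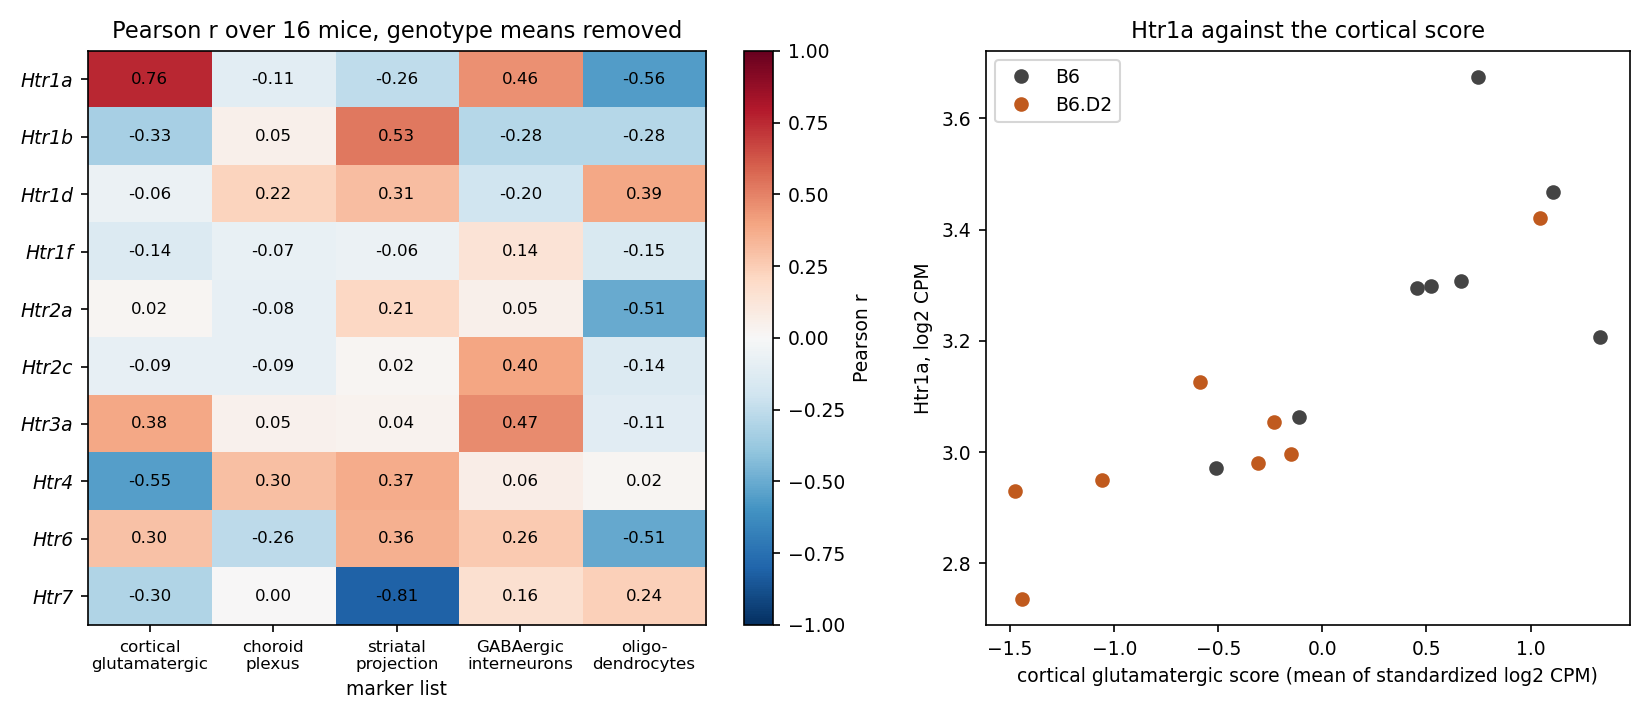
Left, Pearson's r over 16 mice between each receptor gene and the score of each of 5 marker lists, with genotype means subtracted; right, Htr1a in log2 CPM (y axis) against the cortical neuron score (x axis) with 1 point per mouse, genotype means kept. The strongest relations are Htr7 with striatal projection neurons (r = −0.81) and Htr1a with cortical neurons (r = 0.76).

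Among the receptor genes themselves, 45 pairs were related in the same way, a set chosen after the values were seen. Only Htr1b and Htr4 had an adjusted p under 0.05, with r = 0.77 (permutation p 7.30e-04, adjusted p 0.0329) and rho = 0.63 (permutation p 0.0107, adjusted p 0.278). Without the 2 mice farthest from the median r was 0.65, on lanes 5 and 6 it was 0.80 and on lanes 7 and 8 it was 0.47. Without B6 mouse 8 and B6.D2 mouse 1 it was 0.43, so the relation rests in large part on those libraries. Htr1b and Htr2a likewise had r = 0.78 over 16 mice (permutation p 0.00886, adjusted p 0.106; rho = 0.50, permutation p 0.0526, adjusted p 0.338), 0.44 without the 2 farthest mice, 0.85 and 0.31 within the lane pairs, and −0.03 in the 14 mice.

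The genes most alike in pattern over the 16 mice, by Pearson's r of log2 CPM with genotype means subtracted and with no test, differed for every receptor. For Htr1a they were Sstr1 (r = 0.86), Tshz3 (0.85) and Mpped1 (0.85), and for Htr1b Rgs8 (0.94), Zfp180 (0.92) and Amer2 (0.91). For Htr1d they were Lipo1 (0.82), Cmtm7 (0.81) and Rpain (0.81), and for Htr1f Tpx2 (0.86), Oprm1 (0.86) and Zkscan1 (0.83). For Htr2a they were Nuak1 (0.97), 5730455P16Rik (0.97) and Fam171b (0.97), and for Htr2c Zcchc12 (0.87) and Gpr101 (0.82). The values for Htr2a are the highest of the 10. Without B6 mouse 8 and B6.D2 mouse 1 they were 0.84, 0.76 and 0.80, and those of Htr1b were 0.80, 0.80 and 0.66. For Htr3a they were Psmf1 (0.80), Scamp5 (0.79) and Cryl1 (0.77), for Htr4 Smim1 (0.91), Zfp597 (0.89) and Esyt2 (0.88), for Htr6 Kcnj11 (0.86), Apbb1 (0.85) and Pnma2 (0.84), and for Htr7 Smoc1 (0.91), Maged2 (0.90) and Nrip3 (0.89). In the 14 mice the values ran from 0.69, for Htr3a with Scamp5, to 0.93, for Htr7 with Maged2, over the genes named for the other 8 receptors.

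Further genes of serotonin signalling gave 0 past the false discovery rate of 5% in every list, in edgeR, in DESeq2 and in the likelihood ratio test. The counts that follow stand against 45.1% lower and 10% at an unadjusted p under 0.05 among all genes tested, and in the 14 mice against 50.9% and 12.8%. Of the serotonin neuron genes, 4 of 7 were tested, 2 higher and 2 lower, with 0 at an unadjusted p under 0.05, and the most abundant, which also had the smallest p, was Ddc at 10.4 CPM (log2 fold change 0.06); in the 14 mice 3 of the 4 were lower, 1 at an unadjusted p under 0.05. Of the genes for serotonin breakdown and non-neuronal synthesis, 3 of 4 were higher with 0 at an unadjusted p under 0.05, led by the degrading enzyme gene Maoa at 54.4 CPM, and Tph1 had the smallest p (0.0594, log2 fold change −0.50); in the 14 mice the direction turned, with 3 of 4 lower and again 0 at an unadjusted p under 0.05. The Gi/o transducers had 3 of 5 lower, among them Gnaz, the only gene of the list with an unadjusted p under 0.05 (0.0113, log2 fold change −0.24, SE 0.09, below the B6 median in 8 of 8 mice), and their most abundant gene was Gnao1 at 896 CPM; in the 14 mice 3 of 5 were lower, 2 at an unadjusted p under 0.05. The Gq transducers had 8 of 9 lower with 0 at an unadjusted p under 0.05 and a median log2 fold change of −0.11; their most abundant gene was Prkcb at 1704 CPM, and Gnaq had the smallest p (0.0552, log2 fold change −0.13). Their summed level was lowest in B6.D2 mouse 1 (2568 CPM) and highest in B6 mouse 8 (4877 CPM), the group medians were 3969 CPM in B6 and 3940 CPM in B6.D2, and in the 14 mice 6 of 9 were lower with a median of −0.019 and 1 lower and 1 higher gene at an unadjusted p under 0.05. The Gs transducers had 7 of 10 lower, 2 of them at an unadjusted p under 0.05, with Adcy5 the most abundant at 1235 CPM and Adcy2 at the smallest p (0.0237, log2 fold change −0.12). The same libraries were the edges, B6.D2 mouse 1 at 3412 CPM and B6 mouse 8 at 4791 CPM, and in the 14 mice 6 of 10 were lower with a median of −0.032 and 1 lower and 1 higher gene at an unadjusted p under 0.05. Genes for receptor partners, desensitization and editing had 11 of 14 lower, 1 lower and 1 higher at an unadjusted p under 0.05, with Dlg4 the most abundant at 949 CPM and Adrbk1, a receptor kinase gene, at the smallest p (0.00403, log2 fold change −0.15). B6.D2 mouse 1 (1865 CPM) and B6 mouse 8 (2558 CPM) again held the lowest and highest sums, and in the 14 mice 10 of 14 were lower, 3 of them at an unadjusted p under 0.05 and 0 higher ones, with a median of −0.017.

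The remaining marker lists likewise had 0 genes past the false discovery rate in edgeR, in DESeq2 and in the likelihood ratio test, and their counts at an unadjusted p under 0.05 in edgeR follow, with the same shares of all genes tested to set them against. Claustrum and lateral cortex markers were lower in 5 of 6 genes, 3 at an unadjusted p under 0.05, with Gnb4 the most abundant at 53.7 CPM and also at the smallest p (7.25e-04, log2 fold change −0.21), and the counts were the same in the 14 mice. Cholinergic interneuron markers were higher in 4 of 5, 3 at an unadjusted p under 0.05, with Slc5a7 the most abundant at 47.3 CPM and Lhx8 at the smallest p (0.00560, log2 fold change 0.36); in the 14 mice 5 of 5 were higher, 2 at an unadjusted p under 0.05. GABAergic interneuron markers were lower in 10 of 13, 2 at an unadjusted p under 0.05, with Sst the most abundant at 164 CPM and Cck at the smallest p (0.0412, log2 fold change −0.45). Over the 14 mice 8 of 13 were lower, 4 at an unadjusted p under 0.05, and the median was −0.030 in place of −0.071; B6.D2 mouse 1 had the highest sum of all 16 mice (802 CPM) and B6 mouse 8 the highest of B6 (720 CPM). Direct and indirect pathway markers were higher in 4 of 7 and 5 of 6 with 0 at an unadjusted p under 0.05, led by Drd1a at 241 CPM and Penk at 1202 CPM, and Chrm4 and Gpr52 had their smallest p (0.107 and 0.116); in the 14 mice 6 of 7 and 5 of 6 were higher, 1 of each at an unadjusted p under 0.05. All 10 oligodendrocyte genes were higher, 1 of them at an unadjusted p under 0.05, with Mbp the most abundant at 5952 CPM and Olig2 at the smallest p (0.0279); in the 14 mice all 10 were again higher, but the median was 0.036 in place of 0.11, with 0 at an unadjusted p under 0.05. Astrocyte genes were higher in 5 of 8, 1 at an unadjusted p under 0.05, Gjb6 (0.0347), but their most abundant gene, Slc1a2 at 4182 CPM, was among the lower ones (log2 fold change −0.12). Their summed level averaged 5836 CPM in B6 and 5535 CPM in B6.D2, where 7 of 8 mice lay below the B6 median and mouse 1 was lowest at 4349 CPM; in the 14 mice 5 of 8 genes were higher, 0 at an unadjusted p under 0.05. All 8 microglial genes were higher with 0 at an unadjusted p under 0.05, Csf1r leading at 184 CPM with a p of 0.0562, and 8 of 8 with 1 in the 14 mice. Endothelial and mural genes were higher in 7 of 8, 1 at an unadjusted p under 0.05, with Flt1 at 74.3 CPM and Acta2 at the smallest p (0.0213), and the counts were the same in the 14 mice. Markers of hypothalamus and ventral forebrain (6 of 12 tested), of thalamus and habenula (6 of 7) and of midbrain dopamine neurons (4 of 7) split 3 and 3, 3 and 3, and 3 and 1 between higher and lower, with 1, 1 and 0 at an unadjusted p under 0.05. These became in the 14 mice 2 and 4, 1 and 5, and 2 and 2, with 0, 1 and 1. Their most abundant genes were Nkx2-1 at 8.73 CPM, Slc17a6 at 11.8 CPM and Aldh1a1 at 67.2 CPM, the first and last also having the smallest p (0.0197 and 0.233), with Rora at 0.0263 for the thalamic list, and the midbrain marker Foxa2 had 0 reads.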

How the data were processed

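Counts per gene for each lane file are those the authors deposited, made as the labels and methods state with TopHat on mouse genome mm10 and HTSeq 0.6.1p1 (union mode, strand not used) from 50 bp single-end reads. Of 32 lane libraries 31 had a file, B6 mouse 7 having 1. Lane files were summed per mouse, between which the counts varied close to what sampling gives but above it in 13 of 15 mice (chi-square per degree of freedom 0.997 to 1.05). Reads on genes made up 61.4% to 68.3% of those reported; reads outside exons, ambiguous or with more than 1 alignment were kept out of library sizes. Genes were kept with filterByExpr, scaled by TMM and tested with edgeR 4.0.16 (genotype alone, Benjamini-Hochberg adjustment; R 4.3.3); DESeq2 1.42.0 was an alternative. Standard errors come from the fold change and its F statistic. Exact permutation tests used log2 CPM with a prior count of 0.5, correlations 100000 resamples; all were two-sided, and each script was tested on simulated data. The authors' model had home cage as a covariate, which the labels do not give, nor sex; age and punch size differ between labels and methods, and the labels' about 50 days is used. Named genes were the 10 receptors, the 4 other receptor genes, from every list the most abundant gene and that with the smallest p, and the 3 nearest genes in pattern of each receptor, of which 1 is not reported here. The members and lists were chosen with earlier results of these data known. Alternatives were other normalizations, filters, tests, covariates, lanes, lengths and sets of mice. A pair of tables with the authors' own gene-level fold changes and p-values was not used here.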

Additional observations from a re-analysis of the deposited data

Results flagged for a closer look

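Of 40 groups of 8 mice examined, 10 had a highest or lowest mouse whose gap to its nearest neighbour was too large a share of the group's range by Dixon's test at 95%, where chance gives about 1 in 20. B6.D2 mouse 1 accounted for 5 of them. Its Htr1b level was 2.92 CPM, with the next B6.D2 mouse at 6.14 CPM, and its Htr2a level was 2.70 CPM, with the next at 9.25 CPM. Its summed level of GABAergic interneuron markers was 802 CPM, the next highest being 641 CPM. In the same library 27.3% of reads had more than 1 alignment, the next highest being 21.1%, and 10.2% lay outside annotated exons, the next lowest being 14.5%.

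B6 mouse 8 stood out by 11.3% of reads outside annotated exons, the next lowest being 14.8%, and by an Htr6 level of 6.22 CPM, the next highest being 4.98 CPM. B6.D2 mouse 2 had a summed level of cortical glutamatergic markers of 831 CPM, the next highest being 576 CPM. B6.D2 mouse 8 had the highest Htr5b level of its group, 0.680 CPM against 0.383 CPM in the next, from a gene with few reads. B6 mouse 2 had the lowest summed level of oligodendrocyte markers in its group, 9899 CPM against 12540 CPM in the next.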

How the results depend on the processing

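Over 29 other settings, 282 of 290 fold changes of the receptor genes kept their direction, 8 did not, and 0 passed the false discovery rate of 5% under edgeR or DESeq2 (3 of 10 had an unadjusted p under 0.05 with all mice in edgeR). The count of genes past that rate, 1 in the report, was 28 with DESeq2, 20 with the likelihood ratio test, 2 with lane pair as a covariate, 7 in the 14 mice (chosen after seeing the data), and 0 within either lane pair and when the cortical score entered the model; leaving out 1 mouse gave 1 to 4, with 4 without B6.D2 mouse 1 and 3 without B6.D2 mouse 6. The replicate block gave 0. Mouse numbers are shared by the groups, but the labels do not say that they pair mice. Of 8 same-numbered pairs, 3 correlated over 0.1 (−0.12 to 0.36) and 2 of 8 matched best, which neither shows nor excludes a pairing. Receptor genes at an unadjusted p under 0.05 numbered 1 with the second lane alone and 1 with the cortical score, and 2 to 4 leaving out 1 mouse. The shares of all genes tested under those settings are not given here, so these counts say nothing of the receptor genes as a set. With all mice, the 3 of 10 stood against 10% of all genes tested in edgeR. Against the report's sign, Htr4 was 0.040 and Htr7 −0.12 on lanes 5 and 6, Htr6 was −0.060 on lanes 7 and 8, and Htr1b was 0.043 and Htr4 0.071 in the 14 mice. Leaving out 1 mouse, Htr4 ran from −0.11 to 0.022 (without B6.D2 mouse 1) and Htr6 from −0.018 to 0.098 (below 0 without B6.D2 mouse 2 or 4). For the values that moved or changed sign the cause was not tested.

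Limits: 8 mice per genotype, with a biological coefficient of variation of 13%, leave small differences undetected. The counting coefficient of variation is largest for Htr1f and Htr3a. Home cage and sex of each mouse were not in the labels, though the paper's methods give the same numbers of females and males for each genotype. Exon lengths came from another build than the counting, and Htr1b shares exon sequence with an opposite-strand gene. No protein was measured.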
